A study of Mus musculus with 6 samples.

Results

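Hepatic genes of lipid droplet coating, triglyceride lipolysis and fatty acid uptake were examined in liver RNA-seq of mice treated with FGF19. They were taken by name from the count tables, and all 10 were found among the 23284 genes listed: the perilipins Plin2, Plin4 and Plin5, the CIDE genes Cideb and Cidec, the lipase gene Pnpla2 with its inhibitor G0s2, and the uptake and binding genes Cd36, Fabp1 and Slc27a2. Livers came from C57BL/6 mice aged 8 weeks that were fasted overnight, kept fasting, and given either vehicle or 1 mg/kg FGF19 for 6 h. Each of the 2 groups held 3 mice with 1 library per mouse, so every mouse, control or treated, was in the fasted state, and a fed liver was not among the libraries. FGF19 is the human form of a hormone that the ileum secretes after a meal, and FGF15 is its mouse counterpart. The comparison addresses how a late fed-state hormone alters liver mRNA in the fasted animal.

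Hepatocytes store triglyceride in lipid droplets, whose surface carries perilipins that control the access of lipases. PNPLA2, also called ATGL, takes the first fatty acid off triglyceride, ABHD5 activates it, and G0S2 binds and inhibits it, while CIDE proteins promote droplet fusion and growth or the loading of lipid onto lipoproteins. During fasting the liver takes up fatty acids released by adipose tissue through CD36 and the transport protein FATP2, the product of Slc27a2, and FABP1 binds them in the cytosol. Plin2, Cd36 and Fabp1 are among the known targets of PPARα, the nuclear receptor that fatty acids activate during fasting.

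The sequence before the transcription start of each gene was taken from RefSeq, whose table uses GRCm38.p6, and each window of 250 bases was placed on mm9 by its only exact match on the chromosome. Printed here are the windows of Plin2, Cidec and G0s2, which are the genes whose 95% interval of change lay above 0, and that of Fabp1, the most abundant of the 10 per length, for comparison. They lie at chr4:86315964-86316213 (minus strand), chr6:113385755-113386004 (minus strand), chr1:195099383-195099632 (minus strand) and chr6:71149623-71149872 (plus strand). Each reads 5′ to 3′ on the strand of its gene and ends at the base before the RefSeq start, and capitals mark the hexamer AGGTCA, the core letters of nuclear receptor elements, or its reverse complement.
Plin2: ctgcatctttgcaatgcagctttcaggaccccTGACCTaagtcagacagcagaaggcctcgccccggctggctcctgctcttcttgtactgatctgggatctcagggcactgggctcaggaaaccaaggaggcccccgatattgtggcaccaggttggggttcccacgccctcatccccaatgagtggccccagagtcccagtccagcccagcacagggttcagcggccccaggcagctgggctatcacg
Cidec: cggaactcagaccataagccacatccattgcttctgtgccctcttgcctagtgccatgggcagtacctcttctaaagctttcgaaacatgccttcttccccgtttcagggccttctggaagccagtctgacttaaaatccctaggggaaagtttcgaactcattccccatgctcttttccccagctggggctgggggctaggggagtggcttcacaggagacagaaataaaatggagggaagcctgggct
G0s2: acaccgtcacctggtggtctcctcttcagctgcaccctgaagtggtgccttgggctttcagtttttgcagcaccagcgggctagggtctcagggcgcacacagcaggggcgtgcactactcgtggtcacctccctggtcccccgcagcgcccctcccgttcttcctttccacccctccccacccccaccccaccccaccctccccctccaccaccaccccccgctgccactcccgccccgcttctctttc
Fabp1: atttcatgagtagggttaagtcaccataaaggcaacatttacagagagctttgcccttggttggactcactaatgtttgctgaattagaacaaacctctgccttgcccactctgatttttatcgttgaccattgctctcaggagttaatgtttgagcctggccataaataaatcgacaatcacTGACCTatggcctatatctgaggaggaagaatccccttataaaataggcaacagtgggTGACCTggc

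The hexamer AGGTCA, searched on both strands, stood at 1 place in the Plin2 window, beginning 218 bases before the start, and at 2 places in that of Fabp1, at 67 and 9 bases. It was in neither of the windows shown for Cidec and G0s2. Over all 12 windows of the 10 genes, 5 held it (those of Plin2, Cd36, Fabp1 and Slc27a2 and 1 of the windows of Plin5), against 14.0% of the 32851 windows in the table. The full DR1 element is this hexamer repeated in the same direction with 1 base of any kind between the copies, and PPARα binds it with its partner RXR. Searched with no mismatch allowed, it was found in 0 of these 12 windows and in 0.0335% of all windows. Sequences that differ from it by a base were not searched, so the 0 does not show that a DR1 site is absent. TATAAA was found in the windows of Fabp1 and Cideb and in 12.4% of all windows, and CCAAT, counted separately, in 4 of the 12 and in 33.9% of all. These matches describe letters in a short window.

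Total counts were 18994654 to 22920056 per library, and at these totals the limit that a count of 0 allows, 3 counts, was 0.131 to 0.158 CPM. Pairs of libraries from the same group differed by a chi-square of 8.25 to 39.4 per degree of freedom and pairs from different groups by 68.1 to 99.6, so no library was a copy of another. Hepatocyte markers summed to 110441 to 115339 CPM in vehicle and 106686 to 120661 CPM in FGF19 livers, high in every library as the liver label says. Fgb alone of the 10 was called, at a mean of 4281 CPM in vehicle and 10920 CPM in FGF19 livers (2.55-fold, adjusted p = 0.000335 by edgeR's quasi-likelihood test), and the other 9 included 3 that were not called but lay lower without overlap (Cyp2e1, Cps1 and Hnf4a). Of 10 adipocyte markers 5 stayed under 0.5 CPM in every library (Adipoq, Lep, Retn, Plin1 and Cidea), with Lep and Retn at a count of 0 throughout, and the summed markers gave 40.9 to 48.0 CPM in vehicle and 46.6 to 50.6 CPM in FGF19 livers, with Fabp4 the marker called. The sums of 9 endothelial and 11 Kupffer cell markers overlapped between the groups, at 310.7 to 329 against 302.3 to 332.8 CPM and at 306.7 to 367.2 against 300.1 to 370.8 CPM, but single markers changed. Means were higher for 4 and lower for 5 of the endothelial markers and higher for 6 and lower for 5 of the Kupffer cell markers. The macrophage scavenger receptor Marco was 4.90-fold higher (adjusted p = 0.00105), Cd68 was 1.58-fold higher (adjusted p = 0.00931) and the endothelial cadherin Cdh5 was 1.35-fold higher (adjusted p = 0.0275), while Colec11, 1 of 8 stellate cell markers, was lower (log2 fold change -0.75, adjusted p = 0.00878), all by edgeR's quasi-likelihood test. Clec4g (0.767-fold) and Vsig4 (0.686-fold) lay lower and Emr1 (1.28-fold) higher without overlap, and none of these was called. Stellate cell markers had 3 higher and 5 lower means, and their sums overlapped at 233.9 to 320.3 against 219.2 to 267.3 CPM. Among them Reln also lay lower without overlap (0.729-fold) and was not called. Over all tested genes 14.5% lay higher and 13.8% lower without overlap. Neutrophil markers summed to 0.524 to 1.59 CPM in vehicle and 3.02 to 4.32 CPM in FGF19 livers, with S100a9 called higher and Ngp, Camp, Ltf, Mpo and Elane under 0.5 CPM. The part of these other cells in the results was not tested, and in bulk liver fewer cells of a type and less RNA per cell cannot be told apart.

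Plin2 was the 1 gene of the 10 called by the main test. It was higher after FGF19, and none was called lower, where a call is an edgeR quasi-likelihood p that stays under 0.05 after Benjamini-Hochberg adjustment across the 12559 genes tested. The same rule called 4.56% of all tested genes higher and 2.84% lower. At the unadjusted p under 0.01 that the study used, the count was again 1 higher and 0 lower, where 6.20% of all genes were higher and 4.98% lower. An unadjusted p under 0.05 was reached by 3 of the 10 genes, all higher (Plin2, Cidec and G0s2), against 11.6% of all genes higher and 11.3% lower. The number called depended on the test: after adjustment DESeq2 called 2 of the 10 genes higher (Plin2 and Cidec), edgeR's likelihood ratio test 3 (with G0s2) and limma-voom 1, where these tests called 5.11%, 6.21% and 4.33% of all genes higher. Each of them called 0 of the 10 lower, against 4.13%, 4.61% and 2.85% of all genes. Without vehicle replicate 1 the quasi-likelihood test called 2 of the 10 higher (Plin2 and Cidec) and 0 lower, against 2.54% and 1.32% of all genes. The group means were higher for 5 genes and lower for 5. The median log2 fold change was -0.01 over the 10 genes and -0.00076 over all genes. The groups did not overlap for 2 genes, Plin2 and G0s2, both higher, against 14.5% of all genes higher and 13.8% lower in this way. That tally is of CPM. In TPM, a scale compared after seeing the data, Pnpla2 and Cideb also lay apart, both lower, which made 2 higher and 2 lower, against 12.9% and 14.8% of all genes.

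**Figure D1:**
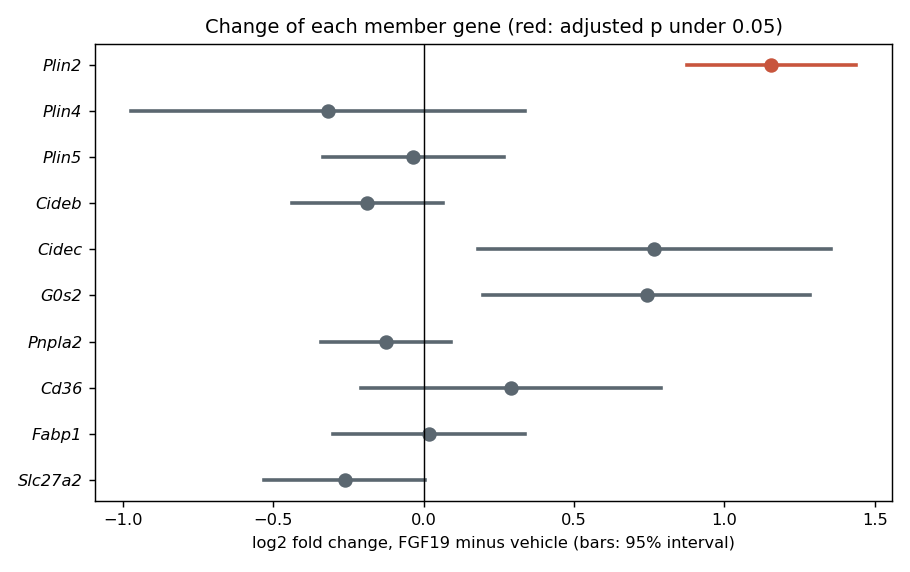
Log2 fold change of each of the 10 genes (FGF19 minus vehicle), points with bars for the 95% interval, in red where the adjusted p was under 0.05. Plin2 stands at 1.16 with its whole bar above 0, the bars of Cidec and G0s2 also lie above 0, and the other 7 bars cross it.

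Among the droplet coat genes, Plin2 encodes the main perilipin of hepatocytes and its mRNA and protein are known to follow the fat content of the cell. The gene lies at chr4:86302469-86315963 (mm9, minus strand). Its level, in CPM scaled by TMM factors as for every gene described here, was 490.1, 375.1 and 443.2 in vehicle replicates 1, 2 and 3 and 930.4, 1101 and 884.1 in FGF19 replicates 1, 2 and 3. Every FGF19 liver lay far above every vehicle liver. The raw counts behind these levels were 7079 to 10284 in vehicle and 19529 to 23967 in FGF19 libraries, so counting error was small beside the spread between mice. The means were 436.1 ± 57.8 and 971.9 ± 114.4 CPM (SD, n = 3 per group). The log2 fold change was 1.16 ± 0.126 (SE), a rise of 2.23-fold with a 95% interval of 1.83 to 2.71 (edgeR's quasi-likelihood test, adjusted p = 0.000908). Among all tested genes 183, or 1.46%, had a larger log2 fold change.

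Plin5, which tethers droplets to mitochondria in oxidative tissues, did not follow Plin2. It lies at chr17:56251024-56256971 on the minus strand, 1798 bases from Plin4, which occupies chr17:56240014-56249225 on the same strand. Plin5 levels were 101.6, 96.9 and 77.9 CPM in vehicle and 75.2, 101.3 and 93.4 CPM in FGF19 livers, and the groups overlapped almost completely. Its log2 fold change was -0.03 with a 95% interval of -0.34 to 0.27 (edgeR's quasi-likelihood test, adjusted p = 0.911). Plin4, the perilipin best known from adipose tissue and muscle, was at 41.0, 16.8 and 18.1 CPM in vehicle and 19.9, 20.1 and 21.1 CPM in FGF19 livers. Vehicle replicate 1 stood apart at 2.35 times the mean of the other vehicle livers, while the FGF19 livers were close together, with a coefficient of variation of 3.03%. Its log2 fold change was -0.32 (95% interval -0.97 to 0.34, adjusted p = 0.573 by edgeR's quasi-likelihood test), and without vehicle replicate 1 it was 0.22 (adjusted p = 0.319 by the same test).

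**Figure D2:**
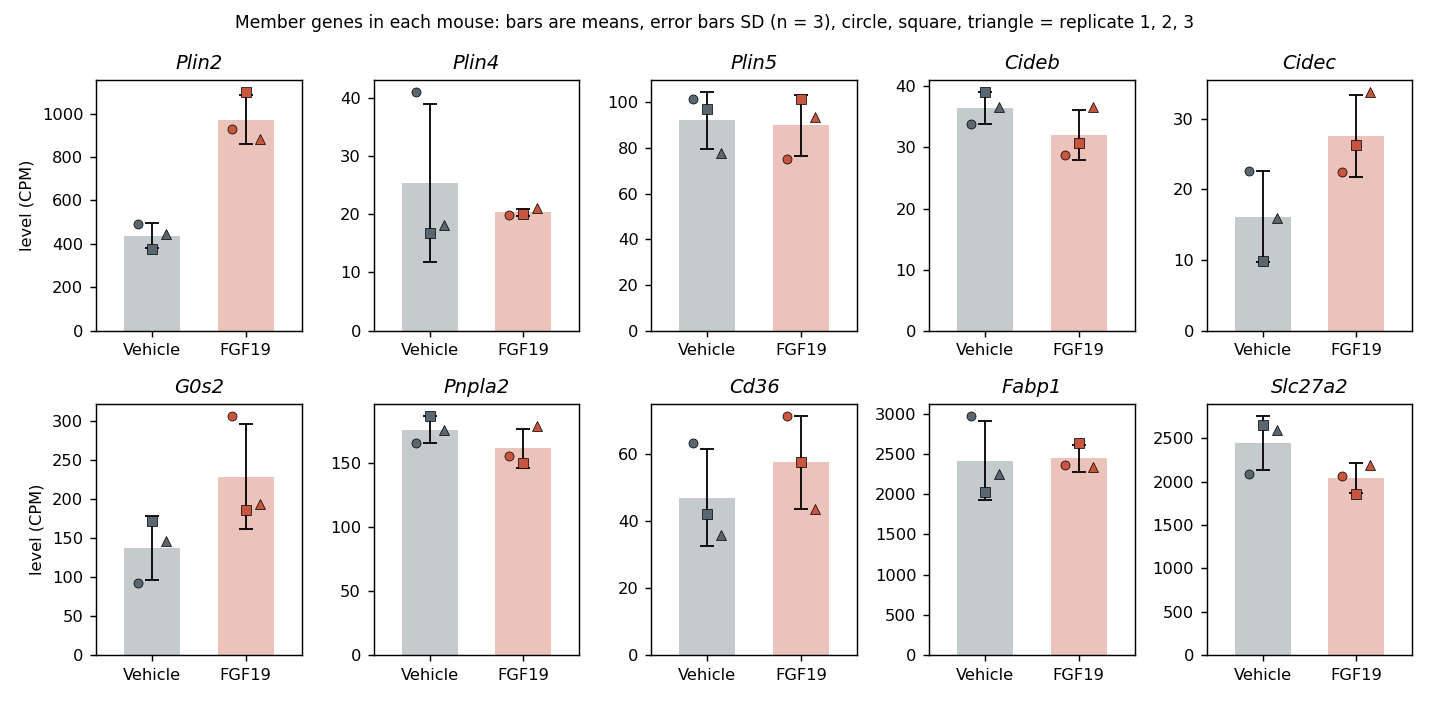
Level of each of the 10 genes in CPM (linear axes from 0), with bars for the group mean, error bars for the SD (n = 3) and a circle, square and triangle for replicates 1, 2 and 3. The FGF19 points of Plin2 sit between 884.1 and 1101 CPM, above every vehicle point, and vehicle replicate 1 is the high point of Plin4 at 41.0 CPM.

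The CIDE genes differed in how they stood between the groups. Cidec, also called FSP27, makes a protein at droplet contact sites that lets small droplets give their lipid to large ones, and its hepatic expression is known to rise in fatty liver. Cidec lies at chr6:113374630-113385749 on the minus strand. Its levels were 22.7, 9.80 and 15.9 CPM in vehicle and 22.4, 26.3 and 33.9 CPM in FGF19 livers. Vehicle replicate 1 lay level with the lowest FGF19 liver, and the other vehicle livers lay below all of them. The log2 fold change was 0.77 ± 0.262 (SE), or 1.70-fold, with a 95% interval of 0.18 to 1.35, and it did not pass the adjusted threshold (edgeR's quasi-likelihood test, adjusted p = 0.115). The call changed with the test and with the mice included, since the adjusted p was 0.0250 with DESeq2, 0.0463 with edgeR's likelihood ratio test and 0.0408 by the quasi-likelihood test without vehicle replicate 1, where the log2 fold change was 1.10. Leaving out single mice gave 0.51 to 1.10, the lowest without vehicle replicate 2 (adjusted p = 0.204 by edgeR's quasi-likelihood test).

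Cideb, the CIDE gene of hepatocytes, acts in the lipidation of very low-density lipoprotein. It lies at chr14:56372892-56377261 on the minus strand, and 855 of its 1173 exon bases are shared with 2610027L16Rik on the other strand, so reads there were left out by the unstranded counting and its level per length is uncertain. Cideb levels were 33.9, 39.1 and 36.6 CPM in vehicle and 28.8, 30.7 and 36.6 CPM in FGF19 livers. The highest FGF19 liver lay inside the vehicle range and the other FGF19 livers below it, and the log2 fold change was -0.19 with a 95% interval of -0.44 to 0.06 (edgeR's quasi-likelihood test, adjusted p = 0.363). The ratio of Cidec to Cideb in TPM was 0.461, 0.173 and 0.30 in vehicle and 0.537, 0.590 and 0.637 in FGF19 livers. All FGF19 ratios exceeded all vehicle ratios, with a difference of 1.03 in mean log2 ratio, and a two-sided exact permutation test gave p = 0.1, the smallest value that 3 against 3 mice allow. The difference was 0.657 without vehicle replicate 2 and 1.36 without vehicle replicate 1.

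Of the lipolysis genes, the lipase itself was level and its inhibitor had a higher mean. Pnpla2 lies at chr7:148641087-148646642 on the plus strand. Its levels were 166.0, 187.2 and 176.5 CPM in vehicle and 156.1, 150.4 and 179.1 CPM in FGF19 livers, with groups that overlapped in CPM and a log2 fold change of -0.13 (95% interval -0.34 to 0.09, adjusted p = 0.489 by edgeR's quasi-likelihood test). G0s2 is a small gene of 843 exon bases at chr1:195098354-195099382 on the minus strand. Its levels were 92.4, 172.2 and 145.7 CPM in vehicle and 306.2, 186.1 and 193.2 CPM in FGF19 livers. The groups did not overlap, but the gap between the highest vehicle and the lowest FGF19 liver was narrow, and each group held a mouse that stood far from the rest, low in vehicle and high in FGF19. The log2 fold change was 0.74 ± 0.242 (SE), or 1.67-fold, with a 95% interval of 0.20 to 1.28, and it did not pass the threshold after adjustment (edgeR's quasi-likelihood test, adjusted p = 0.102). edgeR's likelihood ratio test gave an adjusted p of 0.0341, and leaving out single mice gave log2 fold changes of 0.47 to 0.94.

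The balance of lipase to inhibitor mRNA was also computed within each liver. Pnpla2 over G0s2 in TPM was 0.558, 0.337 and 0.376 in vehicle and 0.158, 0.251 and 0.288 in FGF19 livers. Every FGF19 liver had a lower ratio than every vehicle liver. The mean log2 ratio was -1.27 ± 0.382 in vehicle and -2.15 ± 0.452 in FGF19 livers (SD, n = 3), a difference of -0.88 with p = 0.1 in a two-sided exact permutation test, again the smallest value possible. Both groups had less lipase than inhibitor mRNA per length.

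**Figure D3:**
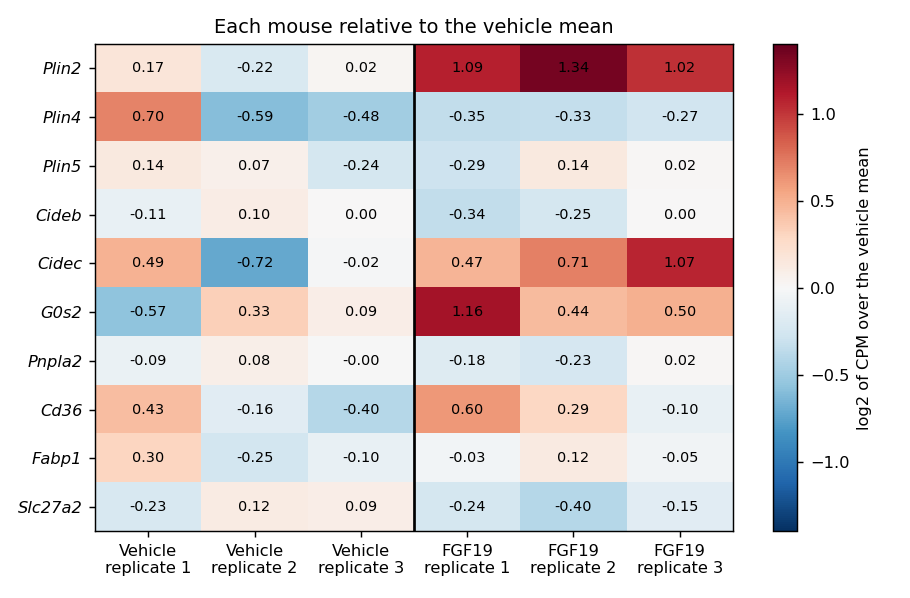
Log2 of CPM over the vehicle mean for each of the 10 genes (rows) in each mouse (columns), red above and blue below the vehicle mean, with the value printed in each cell. The Plin2 row is red across the 3 FGF19 livers, at 1.09, 1.34 and 1.02, and vehicle replicate 1 is apart from the other vehicle livers in Plin4 (0.70), Cd36 (0.43) and G0s2 (-0.57).

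None of the uptake and binding genes was called. Fabp1, the cytosolic fatty acid binding protein of liver, lies at chr6:71149882-71155017 on the plus strand, and its levels were 2974, 2028 and 2252 CPM in vehicle and 2362, 2637 and 2343 CPM in FGF19 livers. The FGF19 livers lay inside the vehicle range, and the log2 fold change was 0.02 with a 95% interval of -0.30 to 0.34 (edgeR's quasi-likelihood test, adjusted p = 0.960). Cd36, the membrane fatty acid translocase, lies at chr5:17287508-17394777 on the minus strand, and its levels were 63.4, 42.0 and 35.7 CPM in vehicle and 71.4, 57.5 and 43.7 CPM in FGF19 livers. The groups overlapped, and mice within a group varied, with coefficients of variation of 30.9% in vehicle and 24.0% in FGF19 livers. The log2 fold change of Cd36 was 0.29 (95% interval -0.21 to 0.79, adjusted p = 0.492 by edgeR's quasi-likelihood test).

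Slc27a2, which encodes the transport protein and very long-chain acyl-CoA synthetase FATP2, lies at chr2:126378760-126413979 on the plus strand. Its levels were 2086, 2651 and 2597 CPM in vehicle and 2063, 1853 and 2197 CPM in FGF19 livers. Vehicle replicate 1 lay among the FGF19 livers and the other vehicle livers above them. The log2 fold change was -0.26 with a 95% interval of -0.53 to 0.005 (edgeR's quasi-likelihood test, adjusted p = 0.227). For 7 of the 10 genes (Plin4, Plin5, Cideb, Pnpla2, Cd36, Fabp1 and Slc27a2) the whole 95% interval lay within a 2-fold change in either direction.

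Among the vehicle livers, replicate 1 had the highest level of 6 genes (Plin2, Plin4, Plin5, Cidec, Cd36 and Fabp1) and the lowest of the other 4. Over all tested genes 34.9% had their highest vehicle level in that library. The share with their lowest vehicle level there was not computed, so the count of 4 has no such comparison. Leaving it out moved the median log2 fold change of the 10 genes from -0.01 to 0.21.

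Per length, the 10 genes covered a wide range in vehicle livers, from Fabp1 at 9099 TPM to Plin4 at 8.17 TPM. In between came Slc27a2 at 1961, Plin2 at 427.7, G0s2 at 298.7, Pnpla2 at 120.0, Plin5 at 83.5, Cideb at 57.5, Cd36 at 22.2 and Cidec at 17.6 TPM (group means). The place of Cideb is uncertain, because reads on its 855 shared exon bases of 1173 were not counted while its TPM used the full length, so that its level may be too low. The ranges of Plin2 and G0s2 overlapped, as did those of Cd36 and Cidec and of Cidec and Plin4, and no other neighbours did as measured. In FGF19 livers the order was the same down to Cideb, with Plin2 at 959.6 and G0s2 at 504.3 TPM no longer overlapping, and Cidec at 29.8 TPM came before Cd36 at 27.4 TPM with overlapping ranges.

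Within the perilipin family the summed level followed Plin2. The summed TPM of Plin1 to Plin5 was 619.4, 482.6 and 544.4 in vehicle and 1054, 1285 and 926.6 in FGF19 livers, and the groups were well separated. Plin2 made up 78.6%, 74.5% and 80.3% of that sum in vehicle and 88.7%, 88.7% and 86.8% in FGF19 livers, a difference in means of 10.3 percentage points (two-sided exact permutation p = 0.1, the smallest possible). Plin2 was the largest part of the sum, so this share restates its own rise and is not a separate result. The other perilipins together must lose share as Plin2 gains it. Plin5 went from a mean share of 15.3% to 7.56% and Plin4 from 1.44% to 0.610%, although neither was called in its own level. Plin3, the perilipin present in most tissues, held 5.47% and 3.77%. Plin1, the adipocyte perilipin, had a single read over all 6 libraries. Among fatty acid binding proteins, Fabp1 accounted for a mean of 96.8% of the summed TPM in vehicle and 96.4% in FGF19 livers, and among the transport proteins Slc27a1 to Slc27a5, Slc27a2 accounted for 73.4% and 73.3%.

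**Figure D4:**
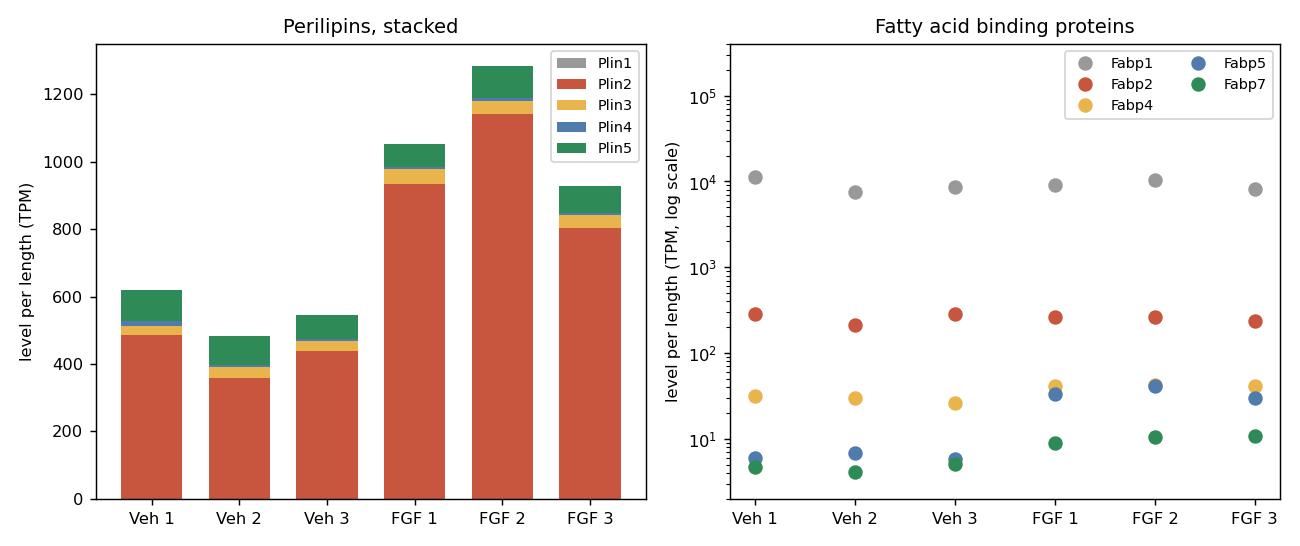
Level per length in each library, with perilipin TPM stacked on a linear axis (left) and fatty acid binding protein TPM as points on a log axis (right), vehicle libraries before FGF19 libraries. The stacks reach 482.6 to 619.4 TPM in vehicle and 926.6 to 1285 TPM in FGF19 livers with Plin2 as the largest part, and Fabp5 lies at 5.85 to 6.78 TPM in vehicle and 29.9 to 41.6 TPM in FGF19 livers, far below Fabp1.

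Other genes of the same processes were read from 3 lists with 48 names, of which 46 were in the tables and 43 were tested. The test called 4 higher and 6 lower, beside the 4.56% and 2.84% of all tested genes given above, and over the 43 the median change was -0.07 on the log2 scale. Of 13 other droplet genes tested, Plin3 alone was called, at 30.0, 38.4 and 35.0 CPM in vehicle and 49.2, 45.3 and 47.0 CPM in FGF19 livers. Its groups did not overlap and its log2 fold change was 0.45 (edgeR's quasi-likelihood test, adjusted p = 0.0328), so Plin2 and Plin3 were the perilipins called higher. Not called but without overlap, Hilpda lay higher (1.89-fold, adjusted p = 0.0782 by the same test) and Hsd17b11 and Pcyt1a lower. Over all tested genes 14.5% lay higher and 13.8% lower in this way.

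Of 14 other lipolysis genes 3 were called lower, all of them carboxylesterases of the Ces1 cluster, which hydrolyse neutral lipids and other esters in the hepatocyte. Ces1d, a triglyceride hydrolase of the endoplasmic reticulum, went from 959.9, 838.5 and 793.3 CPM in vehicle to 515.1, 489.3 and 488.7 CPM in FGF19 livers, without overlap. Its log2 fold change was -0.80 ± 0.097 (SE, adjusted p = 0.00161 by edgeR's quasi-likelihood test). Ces1f fell by 0.65 (adjusted p = 0.0297) and Ces1g by 0.60 (adjusted p = 0.0153) on the log2 scale by the same test. These genes are related copies in 1 cluster, and what the omission of multiply aligned reads did to their counts was not measured. Of the genes that act beside Pnpla2, Abhd5, Lipe and Mgll were not called. The coactivator Abhd5 had a log2 fold change of 0.03 (95% interval -0.16 to 0.23) and Lipe, the hormone-sensitive lipase, 0.02 (-0.29 to 0.33). Mgll, the monoacylglycerol lipase, stood at -0.13 (-0.51 to 0.25).

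Of 16 other genes of uptake, binding and activation, 3 were called higher and 3 lower. The ones called higher were minor members of the FABP family in liver. Fabp5, the epidermal form, was at 3.00, 3.50 and 2.93 CPM in vehicle and 16.5, 19.9 and 16.2 CPM in FGF19 livers. Its FGF19 levels were several times its vehicle levels in every mouse, with a log2 fold change of 2.48 ± 0.147 (SE, adjusted p = 2.36e-05 by edgeR's quasi-likelihood test). Fabp7, the brain form, rose by 1.12 (adjusted p = 0.00904) and Fabp4, the adipocyte and macrophage form, by 0.51 (adjusted p = 0.0344) on the log2 scale. The ones called lower were Vldlr, a receptor for triglyceride-rich lipoproteins (-0.99, adjusted p = 0.0141), Slc27a1, a fatty acid transport protein (-0.88, adjusted p = 0.0378), and Acsl1, the main long-chain acyl-CoA synthetase of liver (-0.45, adjusted p = 0.0280, from 1973 ± 187.1 to 1445 ± 74.3 CPM, SD, n = 3).

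A further list outside the 10 genes held 22 PPARα targets and related genes, with Ppara, Pparg and Ppargc1a among them. Of these 22, 2 were called higher and 1 lower, where the same test called 4.56% and 2.84% of all genes, with a median log2 fold change of 0.01. Fgf21, a fasting hormone made by liver, was at 7.96, 5.72 and 5.76 CPM in vehicle and 19.2, 16.4 and 8.38 CPM in FGF19 livers. FGF19 replicate 3 lay close to the vehicle livers, and the log2 fold change was 1.18 (adjusted p = 0.0361 by edgeR's quasi-likelihood test). Fgf21 lost this call with scaling to total counts (adjusted p = 0.0526, edgeR) and with limma-voom (adjusted p = 0.0732). Pdk4, the kinase that blocks pyruvate dehydrogenase in fasting, rose by 0.78 (adjusted p = 0.0292), and Acaa1b, a peroxisomal thiolase, fell by 0.54 (adjusted p = 0.0202) on the log2 scale.

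**Figure D5:**
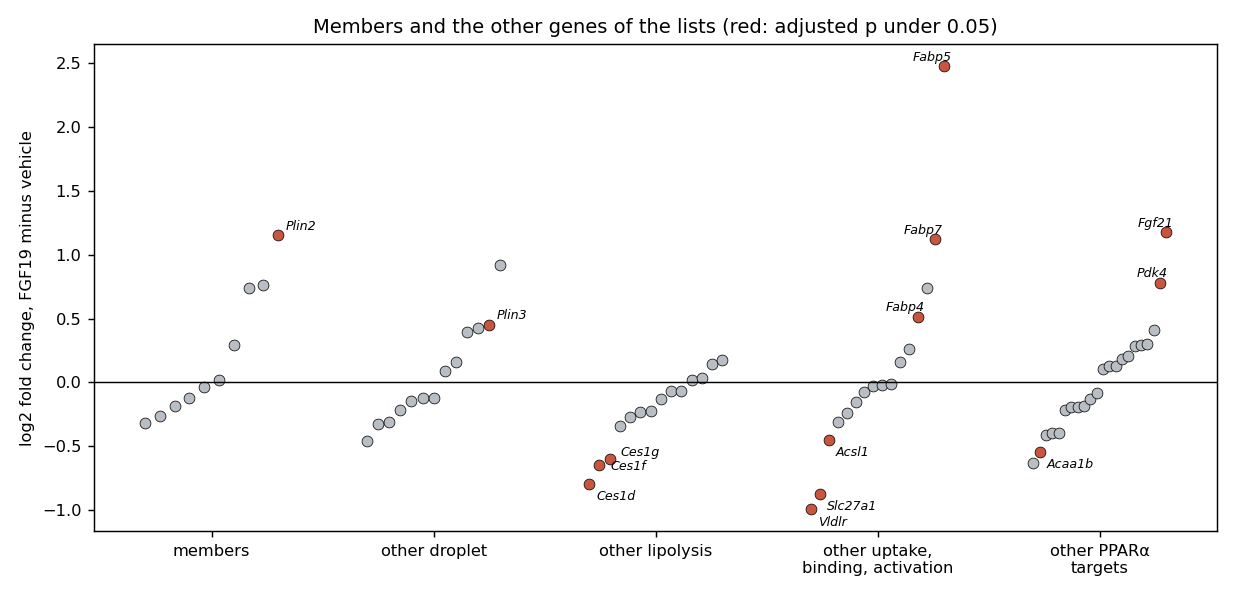
Log2 fold change (FGF19 minus vehicle) of each tested gene, with the 10 genes of lipid droplets, lipolysis and uptake at the left ("members") and the other genes of each list to the right, sorted within a list and red where the adjusted p was under 0.05. Fabp5 at 2.48 is the highest point and Vldlr at -0.99 the lowest, and most points are grey and near 0.

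Several of these calls were lost when a mouse was left out and fewer samples were tested, while the change kept its direction. The calls of Plin2, Ces1d, Fabp5 and Fabp7 held in all 6 fits that left out a mouse each. Vldlr lost its call without vehicle replicate 3 or FGF19 replicate 2 (highest adjusted p = 0.0742), and Ces1g without vehicle replicate 3 or FGF19 replicate 1 or 2 (0.0542). Plin3, Ces1f and Acaa1b lost theirs without vehicle replicate 1 or 3 or FGF19 replicate 1 or 2, with the highest adjusted p at 0.123, 0.0935 and 0.0984. Slc27a1 lost its call without vehicle replicate 2 or 3 or FGF19 replicate 1 or 2 (0.130). Fabp4, Acsl1, Pdk4 and Fgf21 kept theirs only without FGF19 replicate 3, with highest adjusted p values of 0.149, 0.127, 0.106 and 0.147. In these fits the log2 fold change was 0.36 to 0.53 for Plin3, 0.43 to 0.57 for Fabp4, -0.50 to -0.37 for Acsl1, -1.14 to -0.68 for Slc27a1, 0.58 to 0.96 for Pdk4 and 0.93 to 1.46 for Fgf21. All p values are from edgeR's quasi-likelihood test.

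The genes whose profile over the 6 libraries was most like that of Plin2 were Ldha, the lactate dehydrogenase subunit of glycolytic tissues, Tubb2a, a β-tubulin, and Srgn, a proteoglycan core protein of blood cell granules. Likeness was the root mean square distance of centred log2 CPM, at 0.0657 for Ldha, 0.0843 for Tubb2a and 0.110 for Srgn. Ldha was at 1094, 877.1 and 1054 CPM in vehicle and 2231, 2590 and 2299 CPM in FGF19 livers. Like Tubb2a and Srgn, it had its lowest vehicle level and its highest FGF19 level in replicate 2, as Plin2 did. The genes were picked for a like profile over these same libraries, so a match of this kind follows from the choice. The log2 fold change of Ldha was 1.24 against 1.16 for Plin2.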

How the data were processed

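Liver RNA of 6 mice was sequenced as paired 100 bp reads. Per the labels and methods, the authors aligned reads to mm9 with STAR (2.5.3a in the submitters' processing notes, which also list Trimmomatic 0.36) and counted exonic reads with featureCounts 1.5.2. The deposited values are raw counts per gene, and per the file headers strand was ignored, mates were counted separately and multiply aligned reads were left out. The authors' table of their own comparison (fold changes and p-values) was not used.

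Genes passing filterByExpr were tested with edgeR 4.0.16 in R 4.3.3 (TMM factors, quasi-likelihood test, Benjamini-Hochberg adjustment over all tested genes, threshold 0.05). edgeR, limma 3.58.1 and DESeq2 1.42.0 scripts were tested on simulated data. TPM used the exon lengths in the files. Intervals and floors cover the model or counting error only. Each mouse gave 1 library. Groups and replicate numbers came from the labels. The genes and lists were chosen with earlier results of these data known. Named besides the 10 genes were every called gene of the 4 lists of droplet, lipolysis, uptake and PPARα genes (at most 6 a list, by size of change), Plin3, Abhd5, Lipe and Mgll, and the 3 profiles nearest to that of Plin2, the called gene with the largest change among the 10. Alternatives were other normalizations, filters, tests, a replicate block and leaving out each mouse.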

Additional observations from a re-analysis of the deposited data

How the results depend on the processing

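Plin2 kept its call in all 14 alternatives. The number of the 10 genes called higher was 2 with DESeq2, 3 with edgeR's likelihood ratio test and 1 to 2 when a mouse was left out, against 1. Among the other genes of the 3 lists, leaving out a mouse gave 2 to 6 called higher and 1 to 8 called lower, against 4 and 6, with the fewest higher without vehicle replicate 3 or FGF19 replicate 1 or 2 and the fewest lower without vehicle replicate 3 or FGF19 replicate 2. The median log2 fold change of the 10 genes ranged from -0.078 to 0.207 in these fits, the highest without vehicle replicate 1. Leaving out a mouse turned the direction of results that were not called: the log2 fold change ranged from -0.54 to 0.22 for Plin4, -0.14 to 0.080 for Plin5, -0.10 to 0.19 for Fabp1, -0.083 to 0.17 for Lipe and -0.25 to 0.11 for Mgll. The cause was not tested. Same-numbered libraries did not deviate together (correlations of -0.03, -0.18 and -0.18), so the numbers were not taken as pairs, and with a replicate block 1 of the 10 genes and 2 other genes of the 3 lists were called higher and 5 lower. Plin3 (adjusted p = 0.0878), Fabp4 (0.105), Acsl1 (0.0815), Pdk4 (0.0570) and Acaa1b (0.0530) lost their calls under the block in edgeR. In TPM in place of CPM, a comparison added after seeing the data, 2 of the 10 genes were lower without overlap, against 0. With 3 mice a group, depth limits genes under 0.5 CPM, such as Plin1, Cidea and Pnpla3, which were not tested.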
